A study of Homo sapiens with 6 samples.

Results

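The genes described here encode the core of major histocompatibility complex (MHC) class I antigen presentation: the heavy chains HLA-B, HLA-C and HLA-E, the light chain B2M, the peptide transporter TAP1 and TAP2, the loading factor TAPBP, the transcription factor IRF1 and the immune checkpoint ligand CD274 (PD-L1). They were chosen by gene symbol. All 9 symbols were found, each on 1 of the 53826 entries of the deposited tables, so no repeated entry had to be resolved. RNA was sequenced from 6 cultures, with 1 library for each condition. The cells were PK-1 or Panc-1, lines established from human pancreatic ductal adenocarcinoma (PDAC). Each line gave a Control library and 1 library after 24 h with either antagonist of the retinoic acid receptor RARγ, LY2955303 (called RARγi-1) or MM11253 (called RARγi-2). According to the study's supplement, CDKN2A is altered in both lines, and SMAD4 in PK-1 but not in Panc-1. The sources used here state neither the doses for the RNA sequencing nor whether the Control cultures received vehicle. The libraries were assigned by their titles, since a treatment entry names RARγi-1 for both RARγi-2 libraries. Values for the inhibitors are therefore given side by side, in the order RARγi-1 and then RARγi-2, and the inhibitors were not compared with each other.

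MHC class I molecules display peptides from inside the cell to cytotoxic T cells. Peptides cut by the proteasome are pumped into the endoplasmic reticulum (ER) by the TAP1 and TAP2 heterodimer, TAPBP (tapasin) holds the empty heavy chain next to it, and a heavy chain bound to B2M and peptide travels to the cell surface. Interferon-γ is known to raise this machinery through IRF1 and the coactivator NLRC5. Loss of surface class I, or gain of CD274, which binds PD-1 on T cells, is a well-known route by which tumors escape T cells.

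On GRCh38.p14, the RefSeq version of the hg38 build named in the submitters' processing notes, most of the genes lie in the MHC of chromosome 6, at the coordinates 30489509 to 30494194 (HLA-E), 31268749 to 31272092 (HLA-C), 31353875 to 31357179 (HLA-B), 32821831 to 32838739 (TAP2), 32845209 to 32853704 (TAP1) and 33299694 to 33314078 (TAPBP). IRF1 lies on chromosome 5 at 132481609 to 132490773, CD274 on chromosome 9 at 5450542 to 5470554, and B2M on chromosome 15 at 44711517 to 44718145. The class I heavy chain genes are close relatives, and reads from one can be assigned to another. Of all 50-base windows in the longest GENCODE 29 coding transcript, 2.47% in HLA-B, 6.58% in HLA-C and 4.66% in HLA-E occurred without mismatch in another of 6 class I heavy chain genes. The read length and the HLA alleles of the lines are not given in the sources used here, so the part of such reads in the values was not tested.

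Each library gave TPM values, transcript abundances per transcript length scaled to a fixed total, with all values under 1 TPM raised to 1 TPM (the floor). TPM keeps no read depth, so no counting error can be given. Between 13149 and 13652 entries per library lay above the floor. Fold changes are log2 of (TPM + 1) in one library over another, and rose or fell is written of changes of 2-fold or more. Since no condition was repeated, differences could not be set against replicate error, and p-values are not given. As a yardstick, the log2 difference between the treated libraries of the same line had a robust standard deviation of 0.41 (log2) in PK-1 over 10954 entries and of 0.32 in Panc-1 over 10649 entries, which includes real differences between the inhibitors. Changes smaller than this are called within the yardstick. Where 3 levels are given for a line, they stand in the order Control, RARγi-1, RARγi-2. Median-ratio rescaling of the libraries would lower the log2 fold changes of PK-1 RARγi-1 by 0.11 and those of Panc-1 RARγi-1 by 0.09, and move the other comparisons by 0.05 or less. No member changed direction under it.

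The epithelial keratin KRT8 was found in every library, at 3150 to 5967 TPM in PK-1 and 566 to 3530 TPM in Panc-1, whereas CDH1, which encodes E-cadherin, was at the floor throughout Panc-1. The epithelial list of 6 genes moved with treatment: its summed level was 22498 TPM in PK-1 Control and 13507 and 14127 TPM after treatment, and 8418 TPM in Panc-1 Control and 1783 and 1484 TPM after treatment. KRT19 fell in Panc-1, from 1454 TPM to 247 and 157 TPM, and CDH1 was at 170.1, 270.2 and 385 TPM in PK-1 Control, RARγi-1 and RARγi-2. Of 14 leukocyte, endothelial and stromal markers, 11 or 12 were at the floor in each library, among them PTPRC, CD3E and PECAM1. Those above 2 TPM in any library were CD68, a lysosomal glycoprotein, and COL1A1. CD68 rose in PK-1, from 19.8 to 94.995 and 62.6 TPM, and was 244, 276 and 238 TPM in Panc-1. COL1A1 rose in PK-1, from 3.21 to 11.5 and 13.4 TPM, and fell in Panc-1, from 52.4 to 4.65 and 2.10 TPM. The part of these shifts in the class I values was not tested. In bulk RNA, fewer cells of a type and less RNA per cell cannot be told apart.

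The upstream regions of 6 members are shown because HLA-B and HLA-C rose in Panc-1 while B2M, TAP1, TAP2 and TAPBP did not. Class I promoters are known to hold a κB site, an interferon-stimulated response element and, nearer the start, elements bound by the NLRC5 complex. RefSeq promoter windows (GRCh38.p14, 250 bases before to 50 bases after the start) were found for 8 of the 9 members, all but HLA-E. Each line below is the 250 bases before the start of the gene, 5′ to 3′ on the gene's strand, with matches on either strand to the interferon-stimulated response element core (GAAA, any 2 bases, GAAA) or to the κB consensus in capitals.
HLA-B (chr6:31357180-31357429, minus strand): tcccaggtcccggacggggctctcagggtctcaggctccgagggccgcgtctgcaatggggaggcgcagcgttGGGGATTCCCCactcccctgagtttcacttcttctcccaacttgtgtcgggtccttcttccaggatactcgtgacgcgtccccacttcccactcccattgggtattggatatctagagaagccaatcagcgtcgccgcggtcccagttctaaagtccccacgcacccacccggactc
HLA-C (chr6:31272093-31272342, minus strand): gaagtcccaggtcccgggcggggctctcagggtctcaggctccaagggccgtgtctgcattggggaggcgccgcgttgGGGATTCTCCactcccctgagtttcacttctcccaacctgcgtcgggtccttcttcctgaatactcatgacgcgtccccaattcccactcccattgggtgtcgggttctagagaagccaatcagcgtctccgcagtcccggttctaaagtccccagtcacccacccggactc
B2M (chr15:44711267-44711516, plus strand): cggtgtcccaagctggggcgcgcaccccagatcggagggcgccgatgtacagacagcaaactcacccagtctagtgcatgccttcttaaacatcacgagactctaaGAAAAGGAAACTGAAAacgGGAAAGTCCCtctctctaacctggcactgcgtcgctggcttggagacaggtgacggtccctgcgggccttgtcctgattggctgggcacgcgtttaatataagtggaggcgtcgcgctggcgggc
TAP1 (chr6:32853705-32853954, minus strand): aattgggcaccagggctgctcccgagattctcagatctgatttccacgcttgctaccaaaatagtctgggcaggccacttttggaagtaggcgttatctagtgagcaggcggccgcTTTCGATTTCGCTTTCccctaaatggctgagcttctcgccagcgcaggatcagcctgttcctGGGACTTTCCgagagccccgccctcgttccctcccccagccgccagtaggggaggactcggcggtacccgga
TAP2 (chr6:32838740-32838989, minus strand): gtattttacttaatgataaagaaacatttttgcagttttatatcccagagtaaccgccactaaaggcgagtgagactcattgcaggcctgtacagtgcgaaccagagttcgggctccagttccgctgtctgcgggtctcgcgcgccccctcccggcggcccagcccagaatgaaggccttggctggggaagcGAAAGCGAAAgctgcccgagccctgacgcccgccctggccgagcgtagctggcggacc
TAPBP (chr6:33314079-33314328, minus strand): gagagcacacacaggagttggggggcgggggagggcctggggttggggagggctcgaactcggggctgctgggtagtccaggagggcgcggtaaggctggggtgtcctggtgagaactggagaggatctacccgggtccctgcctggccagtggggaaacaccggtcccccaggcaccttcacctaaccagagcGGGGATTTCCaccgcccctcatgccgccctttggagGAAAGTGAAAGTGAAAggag
The interferon-stimulated response element core was found in 5 of the 8 member windows (B2M, TAP1, TAP2, TAPBP and CD274) and in 3.65% of the 27305 promoter windows of the same length. The κB consensus was found in 6 of the 8 (all but TAP2 and CD274) and in 10.8% of all windows. In B2M both lay close together, at positions -144 to -129 and -125 to -116 from the start. HLA-B and HLA-C held the κB consensus, at -177 to -167 and -172 to -163, and the exact letters of the response element core were not in their windows. They held TGACG, the cyclic AMP response element core, at -106 to -102 and -105 to -101, and CCAAT on either strand at -56 to -52 in both. TGACG was found in 5 of the 8 member windows and 6828 of the 27305, and CCAAT in 5 of the 8 and 35.7%. The interferon-γ activated sequence (GAS) element TTCNNNGAA was found in IRF1 and CD274 and in 7.88% of all windows. The retinoid receptor half-site AGGTCA was found in 1 of the 8, CD274 at -117 to -112, where it overlaps the GAS match at -125 to -117 by 1 base, and in 13.9% of all windows. These matches describe the reference sequence and do not show binding.

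B2M was the most abundant member in every library, followed by HLA-C (the plot of levels). In PK-1 Control the order was B2M (2233 TPM), HLA-C (353 TPM), HLA-B (276 TPM), HLA-E (93.8 TPM), TAPBP (45.3 TPM), TAP1 (33.9 TPM), IRF1 (33.0 TPM), TAP2 (26.6 TPM) and CD274 (10.4 TPM). In Panc-1 Control it was B2M (1020 TPM), HLA-C (231 TPM), HLA-E (138 TPM), HLA-B (131 TPM), TAPBP (105 TPM), TAP1 (59.6 TPM), TAP2 (46.8 TPM) and IRF1 (15.4 TPM), with CD274 at the floor. On the log2(TPM + 1) scale, neighbors closer together than the yardstick were HLA-C and HLA-B, TAPBP and TAP1, TAP1 and IRF1, and IRF1 and TAP2 in PK-1 Control, and HLA-E and HLA-B in Panc-1 Control.

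**Figure D1:**
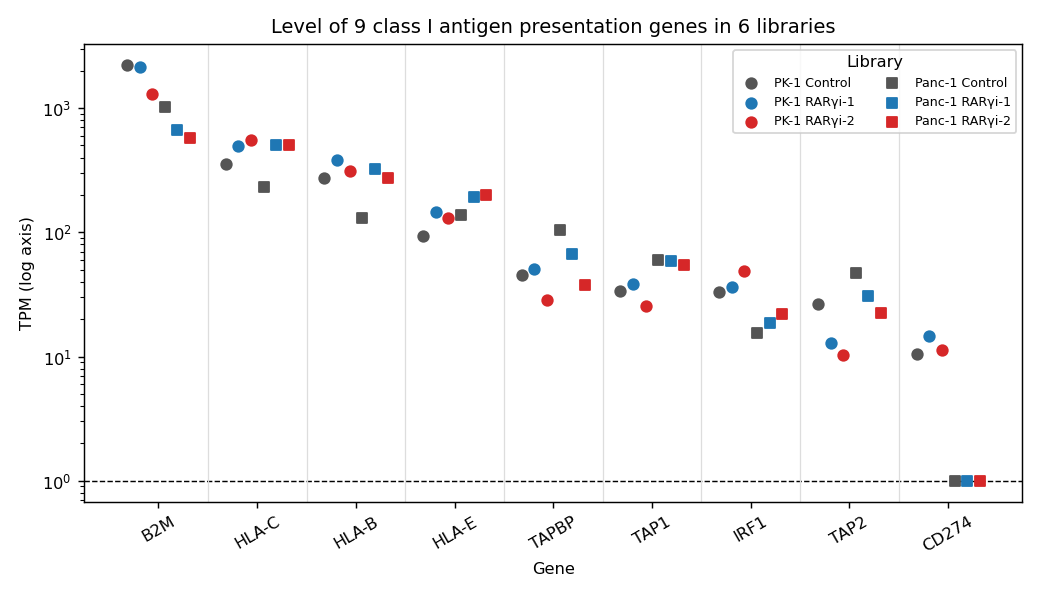
TPM on a log axis of the 9 genes in the 6 libraries (circles PK-1, squares Panc-1; gray Control, blue RARγi-1, red RARγi-2), 1 point per library; the dashed line is the floor of 1 TPM. B2M stands highest in all 6 libraries, from 575 to 2233 TPM, and CD274 lies on the floor throughout Panc-1.

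Untreated, the members differed between the lines in both directions. Panc-1 had less of the class I molecule itself: HLA-B and B2M were lower than in PK-1, with log2 differences of -1.07 and -1.13, and HLA-C had a difference of -0.61. The transporter genes and TAPBP had positive differences, with 0.80 for TAP1, 0.79 for TAP2 and 1.19 for TAPBP. Most other genes of peptide loading and trimming did not share this direction: of 9 on that list 0 were higher in Panc-1 by 2-fold and 6 were lower, among them the tapasin relative TAPBPL (named after its values were seen), at -2.17, and the list median was -1.31. HLA-E, which presents leader peptides of other class I chains to natural killer cell receptors, was at 0.56. IRF1 was lower in Panc-1, at -1.05. With CD274, which was 10.4 TPM in PK-1 and at the floor in Panc-1, 4 of the 9 members were lower in Panc-1 by 2-fold or more and 1, TAPBP, was higher, where of 11441 entries that reached 5 TPM in either library 16.4% were lower and 17.7% higher. The median over the members was -0.61, against 0.03 over all these entries, but -0.029 when 20 TPM was required, and IRF1 was at -0.90, short of 2-fold, with a pseudocount of 5. With 1 library each, cell line and culture cannot be told apart.

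In treated Panc-1 cells HLA-B and HLA-C rose, while B2M, TAP2 and TAPBP were below Control. HLA-B was 131, 324 and 275 TPM in Panc-1 Control, RARγi-1 and RARγi-2, and 276, 382 and 312 TPM in the same conditions of PK-1. Both treated Panc-1 libraries were more than 2-fold above their Control, with log2 fold changes of 1.30 and 1.07, whereas those of PK-1 were 0.47 and 0.18, the latter within the yardstick. HLA-C, a main ligand of natural killer cell inhibitory receptors as well as a presenter of peptides, was 231, 508 and 508 TPM in Panc-1 and 353, 493 and 550 TPM in PK-1. Its log2 fold changes were 1.14 and 1.14 in Panc-1 and 0.48 and 0.64 in PK-1. After rescaling, HLA-B and HLA-C with RARγi-1 in PK-1 were at 0.36 and 0.37, within the yardstick. The HLA-C levels of the treated Panc-1 libraries lay between those of the treated PK-1 libraries, although its level in Panc-1 Control was the lowest of all 6.

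HLA-E was 138, 193 and 199 TPM in Panc-1 and 93.8, 145 and 131 TPM in PK-1. Its log2 fold changes were 0.47 and 0.52 in Panc-1 and 0.62 and 0.48 in PK-1, none of them 2-fold and all past the yardstick. HLA-B, HLA-C and HLA-E were each above the Control of their line in all 4 treated libraries, as were 32.5% of the 9568 entries that reached 5 TPM in each comparison, so the direction alone is a common one. The treated libraries of a line share their Control.

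B2M was lower than Control in all 4 treated libraries, but 2-fold in none. It was 2233, 2144 and 1301 TPM in PK-1 Control, RARγi-1 and RARγi-2 and 1020, 672 and 575 TPM in Panc-1. PK-1 had log2 fold changes of -0.06, within the yardstick, and -0.78, and Panc-1 had -0.60 and -0.83. TAP2 was the other member below Control in all 4, which was true of 27.5% of the 9568 entries. A ratio within a library does not depend on its scaling, so the summed TPM of HLA-B, HLA-C and HLA-E was divided by that of B2M, a measure chosen after the values were seen (the plot of heavy chain transcripts per B2M transcript). The ratio was 0.324 in PK-1 Control, 0.476 with RARγi-1 and 0.764 with RARγi-2. In Panc-1 it was 0.490 in Control, 1.53 with RARγi-1 and 1.71 with RARγi-2, so that the summed level of these 3 chains exceeded that of B2M only in the treated Panc-1 libraries. Other heavy chains were left out of the sum, and both the ratio and its change depend on which are included. Relative to Control it was 1.47 and 2.36 times as high in PK-1 and 3.11 and 3.49 times in Panc-1. The change in the ratio shows that the transcripts moved unequally and not which of them moved.

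**Figure D2:**
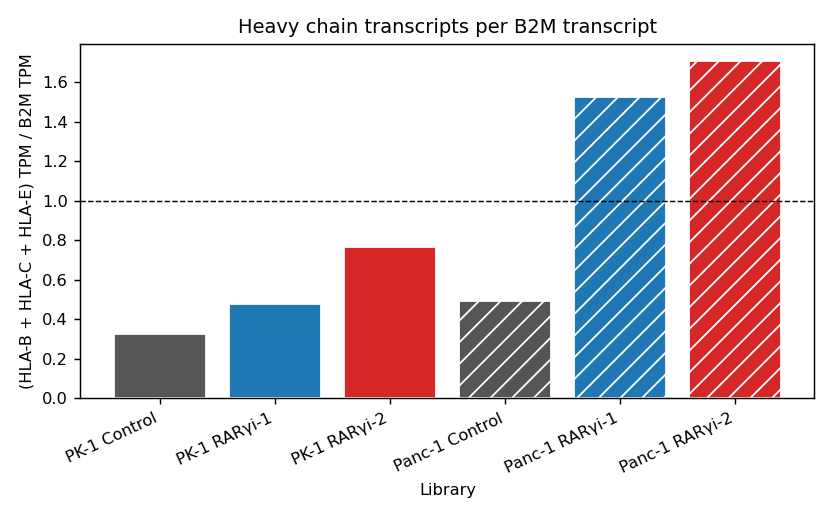
Summed TPM of HLA-B, HLA-C and HLA-E divided by the TPM of B2M in each library, 1 bar per library (plain PK-1, hatched Panc-1); the dashed line marks equal levels. The bars rise from 0.324 to 0.476 and 0.764 in PK-1 and from 0.490 to 1.53 and 1.71 in Panc-1.

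The subunits of the peptide transporter behaved differently. TAP2 was 26.6, 12.8 and 10.4 TPM in PK-1 Control, RARγi-1 and RARγi-2 and 46.8, 30.5 and 22.4 TPM in Panc-1. All treated libraries were below their Control, and the log2 fold changes were -1.0035 and -1.28 for PK-1 and -0.60 and -1.03 for Panc-1. With a pseudocount of 5, the values with RARγi-1 in PK-1 and RARγi-2 in Panc-1 were -0.83 and -0.92, short of 2-fold. TAP1 was 33.9, 38.5 and 25.3 TPM in PK-1 and 59.6, 58.6 and 54.4 TPM in Panc-1. Its log2 fold changes, 0.18 and -0.41 for PK-1 and -0.02 and -0.13 for Panc-1, were all within the yardstick. The Controls of both lines held 1.27 TAP1 transcripts per TAP2 transcript, and the treated libraries held 3.01 and 2.45 for PK-1 and 1.92 and 2.42 for Panc-1. Both proteins are required for the channel.

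TAPBP was 45.3, 50.6 and 28.4 TPM in PK-1 and 105, 66.7 and 37.4 TPM in Panc-1. Its log2 fold changes were 0.16 and -0.65 for PK-1 and -0.64 and -1.46 for Panc-1. It fell past 2-fold only in Panc-1 RARγi-2, and the PK-1 RARγi-1 library was the only one above its Control, by less than the yardstick.

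IRF1, which binds the interferon-stimulated response element, was 33.0, 36.4 and 49.1 TPM in PK-1 and 15.4, 18.6 and 22.0 TPM in Panc-1. All treated libraries were above their Control, with log2 fold changes of 0.14 and 0.56 for PK-1 and 0.26 and 0.48 for Panc-1, of which those with RARγi-1 were within the yardstick. CD274 was 10.4, 14.6 and 11.2 TPM in PK-1, at log2 fold changes of 0.46 and 0.10. Rescaling put the former at 0.36, within the yardstick. In Panc-1 it was listed at the floor in Control and with both inhibitors, so no fold change is given.

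Counted together, 0 of 9 members rose and 1 fell (TAP2, at the threshold) with RARγi-1 in PK-1, where 10.5% of 11059 entries rose and 5.78% fell. With RARγi-2 in PK-1, 0 rose and 1 fell (TAP2), against 14.1% and 14.9% of 11057 entries. In Panc-1, where CD274 could not be counted, 2 of 8 members rose (HLA-B and HLA-C) and 0 fell with RARγi-1, against 8.5% and 7.18% of 10939 entries, and 2 rose (HLA-B and HLA-C) and 2 fell (TAP2 and TAPBP) with RARγi-2, against 9.95% and 13.2% of 10831 entries. The medians over the members were 0.18 and 0.10 for PK-1 and 0.12 and 0.18 for Panc-1, and those over all entries 0.14 and -0.01 for PK-1 and 0.08 and -0.04 for Panc-1. With members moving both ways, neither the counts nor the medians set the group as a whole apart from other entries.

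**Figure D3:**
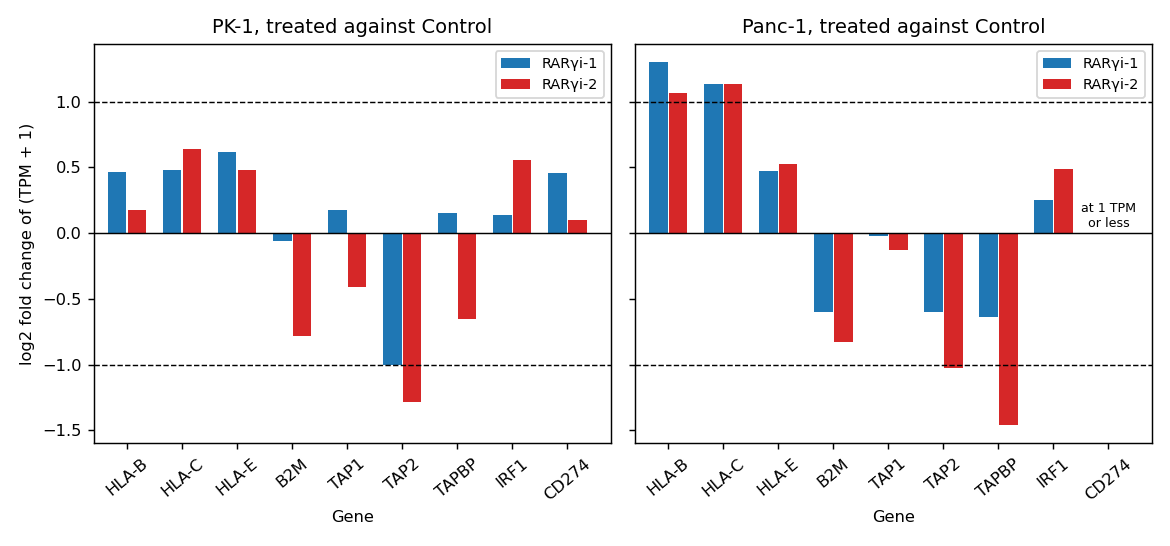
Log2 fold change of (TPM + 1) against the Control of the line for each gene, PK-1 left and Panc-1 right (blue RARγi-1, red RARγi-2), 1 library per bar; dashed lines mark 2-fold. In Panc-1 the bars of HLA-B and HLA-C pass 2-fold upward, at 1.07 to 1.30, those of B2M, TAP2 and TAPBP point downward, and CD274 was at 1 TPM or less.

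Further genes of the pathway were followed with lists. With RARγi-1 and RARγi-2, the shares of all entries that rose were 10.5% and 14.1% for PK-1 and 8.5% and 9.95% for Panc-1, and the shares that fell were 5.78% and 14.9% for PK-1 and 7.18% and 13.2% for Panc-1, against which the counts below stand. Among 13 other class I and class I-like heavy chains, of which 11 were tested (at least 5 TPM in either library) for each inhibitor in PK-1, and in Panc-1 8 with RARγi-1 and 10 with RARγi-2, 0 rose and 0 fell in PK-1 with RARγi-1 and 0 rose and 2 fell with RARγi-2, and in Panc-1 1 rose and 1 fell with RARγi-1 and 1 rose and 3 fell with RARγi-2. ULBP1, a stress-induced ligand of the natural killer receptor NKG2D, rose from 2.41 to 20.3 and 19.8 TPM in Panc-1, and was at 1 TPM or less, 3.61 and 2.16 TPM in PK-1. MICB, another NKG2D ligand, moved the other way with RARγi-2, from 9.70 to 3.84 TPM in PK-1 and from 71.5 to 34.1 TPM in Panc-1. HFE, a class I-like regulator of iron uptake that also pairs with B2M, had log2 fold changes of -0.75 and -1.42 for PK-1 and -1.18 and -1.52 for Panc-1. HLA-F was 28.1, 38.6 and 27.3 TPM in PK-1 and 4.84, 10.2 and 5.04 TPM in Panc-1. The list medians were 0.44 and -0.14 for PK-1 and 0.23 and 0.01 for Panc-1.

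Of 9 genes of peptide loading and trimming, all tested for PK-1 and 8 for Panc-1, 0 rose and 0 fell with RARγi-1 in either line, and 2 rose and 1 fell with RARγi-2 in each. PDIA3, the thiol oxidoreductase that forms the loading complex with TAPBP, was 619, 1037 and 1484 TPM in PK-1 and 439, 670.1 and 1157 TPM in Panc-1. CALR (calreticulin), the chaperone of the complex, was 657, 871 and 1420 TPM in PK-1 and 1310, 1266 and 2175 TPM in Panc-1. CANX (calnexin), which holds the newly made heavy chain, was 506, 602 and 768 TPM in PK-1 and 326, 528 and 687 TPM in Panc-1. With RARγi-2 these 3 chaperones were above Control in both lines. TAPBP was below it, and its relative TAPBPL had log2 fold changes of 0.13 (PK-1) and 0.55 (Panc-1). ERAP2, which trims peptides in the ER, fell with RARγi-2 from 45.4 to 12.5 TPM in PK-1 and from 7.13 to 2.18 TPM in Panc-1. The list medians were 0.15 and 0.13 for PK-1 and 0.24 and 0.47 for Panc-1.

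Of the 5 immunoproteasome and PA28 genes, which interferon-γ induces to alter the peptide supply, none rose, 0 and 2 fell for PK-1, and 0 and 1 fell for Panc-1. PSMB9, whose gene lies head to head with TAP1, was 76.98, 55.2 and 32.8 TPM in PK-1 and 43.1, 31.9 and 16.7 TPM in Panc-1. PSMB8 was 59.1, 43.1 and 28.2 TPM in PK-1 and 41.9, 47.1 and 32.2 TPM in Panc-1. PSMB10 had log2 fold changes of 0.21 and 0.39 for PK-1 and -0.023 and -0.18 for Panc-1. The medians of the list were -0.45 and -0.98 for PK-1 and -0.08 and -0.38 for Panc-1. None of the 3 subunits they replace, PSMB5, PSMB6 and PSMB7, rose or fell, and the medians were 0.00 and 0.02 for PK-1 and -0.24 and -0.15 for Panc-1.

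Among 18 class I transcription factors and genes of interferon signaling, 16 of them tested for PK-1 and 15 for Panc-1, 3 and 4 rose and 0 and 1 fell in PK-1, and 1 and 1 rose and 0 and 2 fell in Panc-1. SOCS1, a feedback inhibitor of JAK kinases, rose in all 4, from 7.91 to 19.3 and 28.03 TPM (PK-1) and from 8.81 to 56.6 and 31.1 TPM (Panc-1). IRF9, the DNA-binding subunit of the type I interferon factor, rose in PK-1 from 17.5 to 60.3 and 52.4 TPM and was 11.7, 16.4 and 12.7 TPM in Panc-1. NLRC5 was 5.46, 10.9 and 13.4 TPM in PK-1, and in Panc-1 it was 1.16 TPM in Control and at the floor in both treated libraries, too low to follow. RFX5, a subunit of the complex that carries NLRC5 to class I promoters, fell with RARγi-2, from 17.7 to 6.44 TPM in PK-1 and from 41.2 to 17.3 TPM in Panc-1. STAT3 fell in Panc-1 RARγi-2, with a log2 fold change of -1.05. The list medians were 0.54 and 0.53 for PK-1 and 0.11 and -0.15 for Panc-1.

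Of 9 genes of NF-κB, whose dimers bind the κB site, 8 were tested for PK-1 and 7 for Panc-1, and NFKB2 alone rose, in PK-1 with RARγi-1, from 40.8 to 89.1 TPM. It was 70.5 TPM with RARγi-2, and 114, 104 and 77.5 TPM in Panc-1. None of those tested fell, and its medians were 0.40 and 0.24 for PK-1 and -0.14 and -0.36 for Panc-1.

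Interferon-stimulated genes did not move as one group. In PK-1, of 55 listed genes, 16 of 42 tested rose and 0 fell with RARγi-1, where 10.5% of all entries rose and 5.78% fell, and 6 of 40 rose and 9 fell with RARγi-2, where 14.1% rose and 14.9% fell. In Panc-1, 4 of 30 rose and 2 fell with RARγi-1 (all entries, 8.5% and 7.18%), and 5 of 28 rose and 5 fell with RARγi-2 (9.95% and 13.2%). The medians were 0.63 and -0.39 for PK-1 and 0.31 and -0.02 for Panc-1, and CXCL9, CXCL10 and CXCL11, chemokines that interferon-γ typically induces, were at the floor in all 6 libraries. IFIT2, named after its values were seen, was 26.2, 108 and 5.93 TPM in PK-1, so it rose with RARγi-1 and fell with RARγi-2. In Panc-1 it was 5.70, 10.8 and 9.43 TPM. ISG20, an exonuclease, rose in all 4, from 4.95 to 80.0 and 114 TPM (PK-1) and from 4.40 to 23.8 and 43.1 TPM (Panc-1). WARS, a tryptophanyl-tRNA synthetase that interferon-γ induces and that is also among the amino acid response genes, rose in all 4, from 137 to 517 and 812 TPM (PK-1) and from 87.3 to 342 and 440.3 TPM (Panc-1). OAS3, a sensor of double-stranded RNA, was 52.8, 36.4 and 17.7 TPM in PK-1 and 15.7, 6.98 and 3.90 TPM in Panc-1. IFI6 was 19.6, 13.4 and 9.59 TPM in PK-1 and 35.0, 12.0 and 8.87 TPM in Panc-1.

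**Figure D4:**
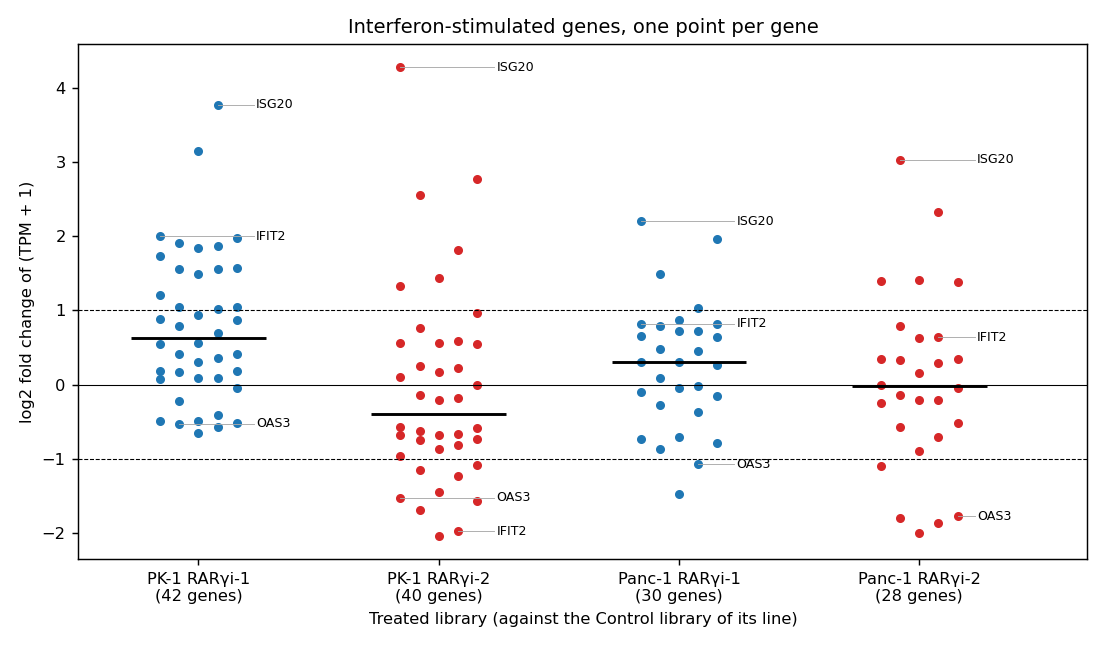
Log2 fold change of (TPM + 1) against the Control of the line for interferon-stimulated genes with at least 5 TPM in either library, 1 point per gene (blue RARγi-1, red RARγi-2; black bar, median; dashed lines, 2-fold). IFIT2 lies far above the 2-fold line in PK-1 RARγi-1 and at -1.98 in PK-1 RARγi-2, and ISG20 is the highest point in every column.

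Among 16 immune checkpoint and natural killer ligands, 9 of them tested for PK-1 and 8 for Panc-1, none rose, 0 fell in PK-1 with either inhibitor, and 1 and 4 fell in Panc-1. CMTM6, which keeps CD274 protein at the cell surface, was 125, 87.9 and 73.6 TPM in PK-1 and 67.9, 44.4 and 31.96 TPM in Panc-1. ICOSLG, a costimulatory ligand, was 5.02, 1.92 and 1.10 TPM in Panc-1. The medians were 0.14 and -0.42 for PK-1 and -0.33 and -0.96 for Panc-1. Of 13 MHC class II genes, 10 were at the floor in each PK-1 library and 11 in each Panc-1 library, the class II transactivator CIITA in all 6. HLA-DOB was 5.39, 5.01 and 1.93 TPM in PK-1.

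The entries whose pattern was most like that of a member were sought by the root mean square difference of the log2 fold changes over 5 contrasts, the 4 treatments and the difference between the Controls, among entries that reached 10 TPM. For IRF1 these were CFDP1 (0.10), TMEM170A (0.13) and BCKDHA (0.13). For HLA-B they were DDX19B (0.13), AGTPBP1 (0.17) and SLC35F6 (0.18). For TAP1 they were TXNRD3 (0.10), IFT57 (0.10) and RWDD4 (0.10). No listed gene of the class I pathway was among them, and with 5 contrasts from 6 libraries such likeness describes these libraries only.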

How the data were processed

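RNA of PK-1 and Panc-1 cells was sequenced as 1 library per condition, from TruSeq Stranded mRNA preparations. The authors deposited log2 values of TPM, per the file headers, with values under 1 TPM raised to 1 TPM, which was read from the values. The submitters' processing notes name hg38. The aligner, counting method, annotation and depth are not given in the sources used here. Deposited values were converted to linear TPM, and fold changes were formed on the log2(TPM + 1) scale, with a pseudocount of 1 TPM, which understates changes of low genes, for each treated library against the Control of its line and for the Controls against each other. Entries with at least 5 TPM in either library were counted, and 2-fold or more was the call. A repeated symbol was to be represented by the entry with the highest mean. No test was made.

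Members and lists were chosen with earlier results of these data known. All members were named. Of each list, up to 2 genes with the largest rise and up to 2 with the largest fall in the mean of the 4 comparisons were named, among those past 2-fold at least once with at least 5 TPM in a library, as well as PSMB8, PSMB9, PSMB10, NLRC5, CALR, CANX, PDIA3 and HLA-F. Some items that the rule names are not reported here. Promoter sequences and gene coordinates are from RefSeq (GRCh38.p14), and transcripts from GENCODE 29. Calculations used Python 3.11.15 with numpy 2.4.6 and pandas 2.3.3. The code was run on simulated libraries with planted changes well past 2-fold. That checks the calculation and does not measure how reliable calls near 2-fold are. Alternatives were no pseudocount and one of 5 TPM, median-ratio rescaling, repeated symbols summed, no filter and one of 20 TPM, and thresholds of 1.5-fold and 3-fold. RARγi-2 was not compared with RARγi-1 because the doses are not stated.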

Additional observations from a re-analysis of the deposited data

Results flagged for a closer look

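Among the genes named above with at least 5 TPM in either library of every comparison, 3 had positive log2 fold changes with both inhibitors in PK-1 and negative ones with both in Panc-1. The difference between the lines was not tested, and the treated libraries of a line share their Control. How common such a pattern is among all entries was not computed, so the count does not set these genes apart. PSMB10, an immunoproteasome subunit, had log2 fold changes of 0.21 and 0.39 for PK-1 and -0.023 and -0.18 for Panc-1, all within the spread between the treated libraries of a line (0.41 for PK-1 and 0.32 for Panc-1). NFKB2, the precursor of the p52 subunit of NF-κB, had 1.11 and 0.77 for PK-1 and -0.14, within that spread, and -0.55 for Panc-1. COL1A1, a collagen chain followed as a stromal marker, had 1.57 and 1.78 for PK-1 and -3.24 and -4.10 for Panc-1. No class I member showed such a pattern.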

How the results depend on the processing

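Of 172 member fold changes recomputed with no pseudocount, a pseudocount of 5, rescaling or repeated symbols summed, 169 kept their direction and their side of 2-fold, and none changed direction. The exceptions came with the pseudocount of 5, under which TAP2 was at -0.83 in PK-1 RARγi-1 and -0.92 in Panc-1 RARγi-2 and IRF1 was at -0.90 in Panc-1 Control against PK-1 Control, so that 0 members fell in PK-1 RARγi-1 and 1 in Panc-1 RARγi-2. A larger pseudocount shrinks the change of low genes by construction. With at least 20 TPM, the median of the members between the Controls was -0.029. With a threshold of 1.5-fold, 1 member rose (HLA-E) and TAP2 fell in PK-1 RARγi-1, and 1 rose and 3 fell in PK-1 RARγi-2. In Panc-1, HLA-B and HLA-C rose with each inhibitor, and B2M, TAP2 and TAPBP fell with each. Between the Controls, 3 members were higher in Panc-1, and HLA-B, HLA-C, B2M, IRF1 and CD274 were lower. The shares of all entries were 23.7% up and 13.4% down (PK-1 RARγi-1), 25.1% up and 26% down (PK-1 RARγi-2), 20.5% up and 15.5% down (Panc-1 RARγi-1), 20.4% up and 23.9% down (Panc-1 RARγi-2) and 29% up and 27% down (Panc-1 Control against PK-1 Control). With 3-fold, 0 members rose or fell with treatment, and between the Controls 0 were higher and 1 was lower, against 3.39% up and 1.88% down (PK-1 RARγi-1), 6.08% up and 6.89% down (PK-1 RARγi-2), 2.61% up and 2.72% down (Panc-1 RARγi-1), 3.67% up and 6.15% down (Panc-1 RARγi-2) and 9.73% up and 9.45% down (Panc-1 Control against PK-1 Control). The cause was not tested. No paired analysis was possible because there is 1 library per condition.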
